A study of Mus musculus with 24 samples.

Results

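Transcripts of 9 genes that are best known from neutrophils, S100a8, S100a9, Lcn2, Retnlg, Csf3r, Cxcr2, Mmp8, Ngp and Camp, were followed in tumor-associated macrophages. The genes were chosen by symbol from the 55487 gene IDs of the count table, and each symbol matched 1 ID. The macrophages were sorted for CD45, CD11b and F4/80, with SYTOX green as a dead-cell stain, and came from orthotopic MC38 tumors in C57BL/6J mice whose age the labels do not give; MC38 is a colon carcinoma line of the mouse. The tumor cells either lacked Apc, a tumor suppressor that restrains Wnt signalling (APC-KO), or carried it (APC-WT). The groups were APC-KO tumor 2, APC-KO tumor 1, APC-WT tumor 2 and APC-WT tumor 1, with 6 libraries each and 24 in all. The labels name the 6 libraries replicates of 1 sample, so the spread between libraries lies within a tumor, and 2 tumors stood for each genotype. How many animals gave a tumor sample, and how many clones the APC-KO line comprises, the labels do not say.

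Neutrophils make their granules in order while they mature. Azurophil (primary) granules with Mpo and Elane are filled first, then specific granules with Ltf, Camp, Ngp, Lcn2 and Mmp8, then gelatinase granules with Mmp9. The receptor CXCR2 marks the later stages, whereas the receptor CSF3R is not confined to them. S100A8 and S100A9 are cytosolic proteins. The 2 S100 proteins form calprotectin, a calcium- and zinc-binding alarmin that signals through TLR4. Several of these genes are not confined to neutrophils: monocytes and macrophages can transcribe S100a8, S100a9, Lcn2 and Csf3r, and inflamed or transformed gut epithelium makes Lcn2. Mature neutrophils carry CD11b and Ly6G but not F4/80, so a gate on F4/80 is meant to leave them out.

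The promoters of 5 genes are shown because S100a8, S100a9, Lcn2 and Mmp8 moved together between the APC-KO tumors while Csf3r was lower in APC-KO tumors. Each runs from 250 bases before to 30 bases after the RefSeq start (GRCm38.p6, 5′ to 3′ on the gene's strand). Capitals mark matches on either strand to TTNNGCAA (the C/EBP half-site pair), GAGGAA (the core bound by PU.1 and other ETS factors) and TATAAA (a core promoter element). S100a8 lies on chromosome 3 on the plus strand, at chr3:90668821-90669100, S100a9 on the same chromosome on the minus strand at chr3:90695692-90695971, Lcn2 on the minus strand at chr2:32387710-32387989, Mmp8 on the plus strand at chr9:7558179-7558458 and Csf3r on the plus strand at chr4:126024409-126024688.
S100a8: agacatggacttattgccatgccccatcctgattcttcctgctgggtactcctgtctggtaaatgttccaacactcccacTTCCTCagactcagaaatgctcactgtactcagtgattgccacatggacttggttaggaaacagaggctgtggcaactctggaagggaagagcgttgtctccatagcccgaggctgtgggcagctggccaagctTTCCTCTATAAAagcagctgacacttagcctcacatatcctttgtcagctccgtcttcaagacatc
S100a9: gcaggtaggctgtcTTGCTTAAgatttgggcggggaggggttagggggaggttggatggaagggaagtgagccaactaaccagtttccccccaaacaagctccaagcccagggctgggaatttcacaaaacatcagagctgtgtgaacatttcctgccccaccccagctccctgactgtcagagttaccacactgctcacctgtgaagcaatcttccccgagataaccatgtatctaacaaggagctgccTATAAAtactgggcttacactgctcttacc
Lcn2: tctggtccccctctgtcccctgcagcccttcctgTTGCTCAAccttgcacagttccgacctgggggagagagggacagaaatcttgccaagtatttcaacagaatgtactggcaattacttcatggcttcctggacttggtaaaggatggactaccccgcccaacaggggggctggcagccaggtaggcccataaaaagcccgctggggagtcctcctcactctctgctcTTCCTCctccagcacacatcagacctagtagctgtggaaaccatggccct
Mmp8: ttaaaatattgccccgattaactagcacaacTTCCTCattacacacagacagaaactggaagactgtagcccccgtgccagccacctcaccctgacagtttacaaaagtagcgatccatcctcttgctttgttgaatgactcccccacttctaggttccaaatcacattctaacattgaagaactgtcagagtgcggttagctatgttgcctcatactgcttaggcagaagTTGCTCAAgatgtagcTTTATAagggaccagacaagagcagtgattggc
Csf3r: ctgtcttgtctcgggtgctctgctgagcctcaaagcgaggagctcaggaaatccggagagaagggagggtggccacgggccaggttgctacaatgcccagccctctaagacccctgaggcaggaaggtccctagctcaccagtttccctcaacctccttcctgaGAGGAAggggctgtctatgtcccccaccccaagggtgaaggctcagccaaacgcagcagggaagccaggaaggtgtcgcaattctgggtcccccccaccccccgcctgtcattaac
The C/EBP motif was found in S100a9, Lcn2 and Mmp8, the ETS core in S100a8, Lcn2, Mmp8 and Csf3r, and TATAAA in S100a8, S100a9 and Mmp8. Counted from the RefSeq start, TATAAA began at base -30 in S100a8 but at base 1 in S100a9. In Mmp8 it lay on the opposite strand, from base -3. No matches overlapped in these windows. Of all 32851 promoters in the RefSeq table, 10.4% held TTNNGCAA, 26.0% GAGGAA and 13.1% TATAAA in a window of the same length. These matches describe letters and do not show binding.

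The libraries differed in depth and in what they held. A library of APC-KO tumor 2 held 13464061 to 17196820 counts and one of APC-KO tumor 1 8895722 to 19328572. Those of APC-WT tumor 2 held 28018638 to 46837543 counts, and those of APC-WT tumor 1 74972634 to 93568353. Satellite-like loci took 38.5% (tumor 2) and 37.9% (tumor 1) of APC-KO counts, against 7.08% (tumor 2) and 1.32% (tumor 1) of APC-WT counts. Reads also fell on 1974 olfactory and vomeronasal receptor genes, which macrophages are not known to use, and their mean count per kb of exon served as the background expected at any gene. By that measure background made up 17.9% and 17.6% of the APC-KO counts and 5.05% and 0.751% of the APC-WT counts. Levels are therefore given as scaled CPM, which is CPM computed on the TMM-scaled total of 3941 expressed genes, beside the expected background. All 12 markers of the sorted macrophages, among them Ptprc (CD45), Itgam (CD11b) and Adgre1 (F4/80), were above background in each tumor.

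Most of the neutrophil transcripts were present beyond background. A gene was called above background when its count per kb exceeded the 99th percentile of the receptor genes in that tumor. That percentile stood at 3.66 and 3.41 times the receptor mean in APC-KO tumors 2 and 1, and at 2.45 and 3.94 times in APC-WT tumors 2 and 1. By this rule 6 of the 9 were above background in APC-KO tumor 2, 7 in APC-KO tumor 1, 8 in APC-WT tumor 2 and all 9 in APC-WT tumor 1. The share of all genes that passes the rule was not counted, so these counts describe the 9 alone. Camp passed narrowly in APC-KO tumors 2 and 1, at 3.97 and 4.00 times the receptor mean. S100a8, S100a9, Lcn2, Retnlg and Csf3r passed in all 4 tumors. Cxcr2 and Ngp missed in both APC-KO tumors, Mmp8 in APC-KO tumor 2 and Camp in APC-WT tumor 2. Against the highest receptor gene of the tumor in place of the percentile, or against 10 times the receptor mean, S100a8 and S100a9 were the 2 that passed in every tumor. Summed scaled CPM of the 9 genes was 345.1 in APC-KO tumor 2 and 748.1 in APC-KO tumor 1, against 631.6 in APC-WT tumor 2 and 334.5 in APC-WT tumor 1. The background expected for the 9 together was 61.3 and 60.7 in APC-KO tumors 2 and 1, and 8.47 and 1.18 in APC-WT tumors 2 and 1.

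**Figure D1:**
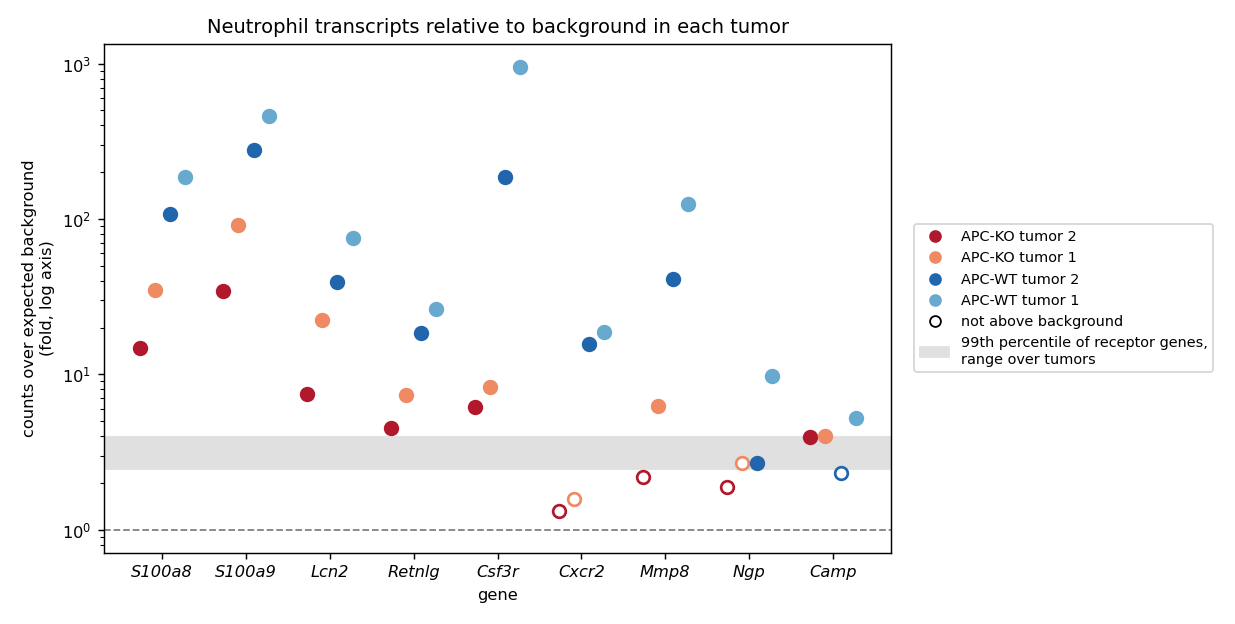
Counts of each neutrophil transcript as a multiple of the expected background (log axis), with 1 point per tumor; open points were not above background and the grey band spans the 99th percentile of the receptor genes over the 4 tumors. S100a9 stands between 34.5-fold and 458-fold over background, while Cxcr2 in the APC-KO tumors lies at 1.31-fold and 1.57-fold.

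Of 5 defining neutrophil genes outside the 9 (Ly6g, Mpo, Elane, Ltf and Cebpe), 1 was above background in each APC-KO tumor, 1 in APC-WT tumor 2 and 4 in APC-WT tumor 1. Ly6g, the surface antigen that identifies mouse neutrophils, had medians of 5.27 and 4.39 scaled CPM in the APC-KO tumors 2 and 1 and of 1.01 and 0.335 in APC-WT tumors 2 and 1. These were 1.18-fold, 1.36-fold, 1.72-fold and 4.68-fold the expected background in the same order, and APC-WT tumor 1 alone was above the percentile. Mpo, the myeloperoxidase of azurophil granules, was above background in none of the 4 tumors, at 1.84-fold and 1.98-fold in APC-KO tumors 2 and 1 and 1.21-fold and 2.57-fold in APC-WT tumors 2 and 1. Elane, neutrophil elastase, was above it in both APC-KO tumors (4.09-fold and 3.79-fold) and in APC-WT tumor 1 (4.05-fold) but not in APC-WT tumor 2 (2.15-fold). Ltf (lactoferrin) and Cebpe, the transcription factor of specific granules, were not above background in either APC-KO tumor, at 1.32-fold and 1.08-fold for Ltf and 2.25-fold and 2.35-fold for Cebpe in APC-KO tumors 2 and 1. Ltf was above it in APC-WT tumor 1 (8.46-fold) but not in APC-WT tumor 2 (2.17-fold), and Cebpe in both APC-WT tumors 2 and 1 (6.04-fold and 13.7-fold). Of the 6 primary granule genes listed, 1 was above background in each APC-KO tumor, 2 in APC-WT tumor 2 and 3 in APC-WT tumor 1. These counts are not levels, because expected background differed. For Mpo it was 13.5 (APC-KO tumor 2), 13.4 (APC-KO tumor 1), 1.87 (APC-WT tumor 2) and 0.262 (APC-WT tumor 1) scaled CPM. With it subtracted, Mpo had 11.3, 13.1, 0.387 and 0.41 in that order, and Elane 12.0, 10.7, 0.617 and 0.229. Cebpe kept 6.13, 6.55, 3.42 and 1.21, Ly6g 0.672, 1.33, 0.369 and 0.265, and Ltf was mixed (4.39, 1.13, 2.21 and 1.97). Mpo, Cebpe, Ly6g and Ltf were not above background in the APC-KO tumors, so what they kept there lies within the spread of the receptor genes. For Ly6g the expected background there was 3.72 and 3.69, larger than what was left. After subtraction 45.5% of the genes were called higher in APC-KO tumors. In such bulk samples, the number of cells of a type and their RNA per cell cannot be told apart.

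S100a8 and S100a9, which encode the 2 chains of calprotectin, had their highest scaled CPM in APC-KO tumor 1 and their lowest in APC-WT tumor 1. S100a9 had 63.8, 71.2 and 75.5 scaled CPM (lowest, median and highest library) in APC-KO tumor 2 and 165, 184 and 208 in APC-KO tumor 1, against 72.9, 80.4 and 82.7 in APC-WT tumor 2 and 16.8, 18.4 and 20.2 in APC-WT tumor 1. The libraries of APC-KO tumor 2 and APC-WT tumor 2 overlapped, and the other tumors stood apart from them and from each other. S100a8 (chromosome 3, 90668978 to 90670035, plus strand, GRCm38) had 32.9, 39.1 and 49.4 scaled CPM in APC-KO tumor 2 and 85.0, 94.1 and 103 in APC-KO tumor 1. In APC-WT tumor 2 it had 38.2, 40.5 and 46.3 scaled CPM, and in APC-WT tumor 1 8.84, 9.40 and 11.9. It showed the same order and the same overlap as S100a9, its neighbour on chromosome 3 (90692632 to 90695721, minus strand). The order of the upper tumors rests on the scale: with an offset for transcript length, described below, S100a8 and S100a9 were lower in APC-KO tumor 1 than in APC-WT tumor 2, at -0.62 and -0.54 log2 units, and lower in APC-KO tumor 2 than in APC-WT tumor 2, at -1.74 and -1.83. APC-WT tumor 1 stayed the lowest. The ratio of S100a9 to S100a8 in scaled CPM stayed within 1.76 and 1.99 across the 4 tumors.

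Lcn2 encodes lipocalin 2, which binds bacterial siderophores and so withholds iron. It had 62.4, 73.8 and 96.5 scaled CPM in APC-KO tumor 2 and 209, 229 and 260 in APC-KO tumor 1, against 51.6, 56.5 and 64.2 in APC-WT tumor 2 and 13.1, 15.4 and 16.8 in APC-WT tumor 1. APC-KO tumor 1 was highest with no overlap, and the lowest library of APC-KO tumor 2 lay inside the range of APC-WT tumor 2. Retnlg, which encodes the resistin-like protein gamma of mature neutrophils, was far lower, with medians of 9.99 and 17.0 scaled CPM in the APC-KO tumors 2 and 1 and of 5.78 and 1.16 in APC-WT tumors 2 and 1. Its libraries ranged from 8.26 to 13.5 and from 15 to 18.3 in APC-KO tumors 2 and 1, and from 5.25 to 7.28 and from 1.04 to 1.43 in APC-WT tumors 2 and 1. The 4 tumors did not overlap, but expected background alone was 2.34 and 2.32 in the APC-KO tumors, above the Retnlg level measured in APC-WT tumor 1.

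The receptors behaved otherwise. Csf3r, the receptor for granulocyte colony-stimulating factor, had 80.7, 87.9 and 96.7 scaled CPM in APC-KO tumor 2 and 84.3, 116 and 144 in APC-KO tumor 1, against 348, 365 and 413 in APC-WT tumor 2 and 251, 265 and 271 in APC-WT tumor 1. Every APC-KO library lay below every APC-WT library, and the APC-KO tumors overlapped each other. Cxcr2, the receptor for CXCL1, CXCL2 and other chemokines that draw neutrophils, had medians of 14.9 and 18.7 scaled CPM in the APC-KO tumors 2 and 1, where 12.1 and 11.9 were expected from background. It had 24.6, 25.2 and 32.5 scaled CPM in APC-WT tumor 2 and 3.78, 4.58 and 4.91 in APC-WT tumor 1, which is 15.7-fold and 18.8-fold over background. The ratio of Csf3r to S100a9 was 1.24 and 0.62 in APC-KO tumors 2 and 1, and 4.66 and 14.3 in APC-WT tumors 2 and 1. With the trend over transcript length taken out it was 2.51 and 1.35 in APC-KO tumors 2 and 1, and 2.22 and 6.80 in APC-WT tumors 2 and 1, so APC-KO tumor 2 then lay above APC-WT tumor 2.

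Among the granule genes, Mmp8, the neutrophil collagenase, had 13.3, 18.6 and 28.2 scaled CPM in APC-KO tumor 2 and 48.1, 58.5 and 68.9 in APC-KO tumor 1, against 50.2, 53.5 and 62.4 in APC-WT tumor 2 and 21.2, 23.1 and 26.1 in APC-WT tumor 1. APC-KO tumor 1 overlapped APC-WT tumor 2, and APC-KO tumor 2 overlapped APC-WT tumor 1. Ngp, the neutrophilic granule protein, and Camp, the precursor of the antimicrobial peptide CRAMP, had few counts in every tumor. Ngp had medians of 9.2 and 13.1 scaled CPM in the APC-KO tumors 2 and 1, at 1.87-fold and 2.68-fold background, and of 1.77 and 0.895 in APC-WT tumors 2 and 1, at 2.67-fold and 9.78-fold. Camp had medians of 12.1 and 11.9 scaled CPM in the APC-KO tumors 2 and 1, at 3.97-fold and 4.00-fold background, and of 0.922 and 0.318 in APC-WT tumors 2 and 1, at 2.32-fold and 5.26-fold. For both genes the APC-KO libraries were all above the APC-WT libraries, as was the expected background itself. These values rest on few reads: Camp had 376 and 312 counts over the 6 libraries of APC-KO tumors 2 and 1 and 149 and 112 in APC-WT tumors 2 and 1.

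**Figure D2:**
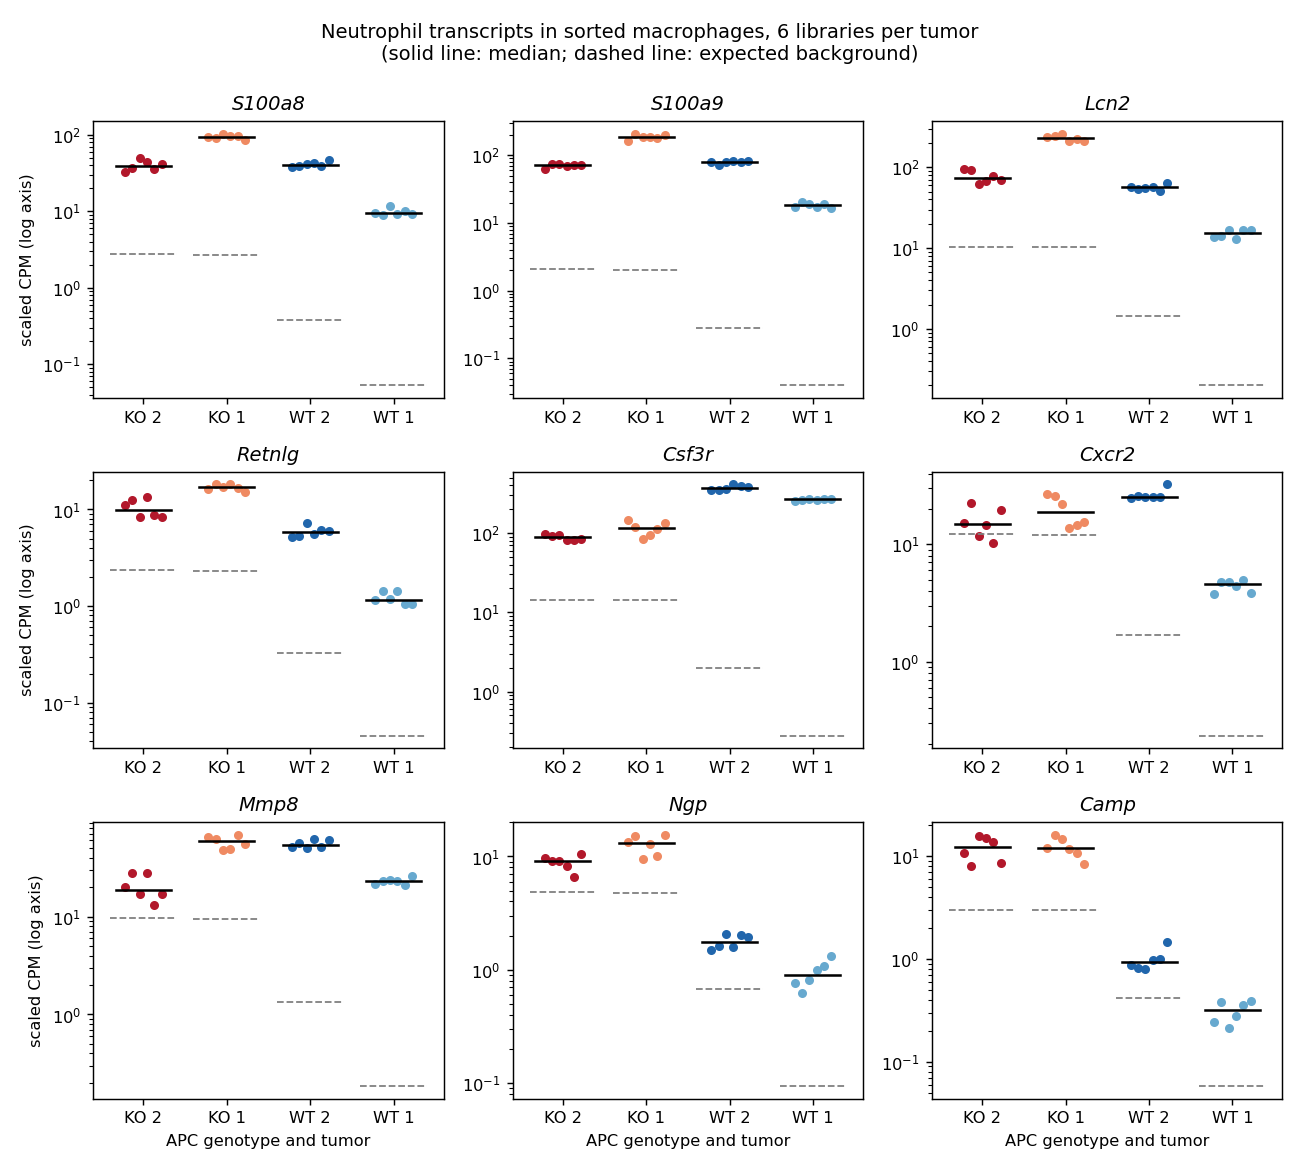
Scaled CPM of the 9 neutrophil transcripts in each library (points; log axis, which differs between panels), with the median of 6 libraries (solid line) and the expected background (dashed line), for APC-KO tumors 2 and 1 and APC-WT tumors 2 and 1. S100a8, S100a9 and Lcn2 are highest in APC-KO tumor 1 on this scale (with a length offset S100a8 and S100a9 are highest in APC-WT tumor 2), whereas Csf3r is higher in all APC-WT libraries, and Ngp and Camp, like the expected background, are higher in all APC-KO libraries.

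Per kb of exon and after subtraction of background, S100a9 led in APC-KO tumor 2 (133 scaled CPM per kb), APC-KO tumor 1 (356) and APC-WT tumor 2 (150). In APC-WT tumor 1 Csf3r led with 72.4 scaled CPM per kb, ahead of S100a9 with 34.9. That lead rests on the scale, because the trend over transcript length is not taken out here. Taking it out lowers the ratio of Csf3r to S100a9 counts in APC-WT tumor 1 from 14.3 to 6.8. S100a8 and Lcn2 followed in both APC-KO tumors, and Csf3r and S100a8 followed in APC-WT tumor 2. Before subtraction the libraries of these leading genes did not overlap, except that Lcn2 overlapped Csf3r, its next in order, in APC-KO tumor 2. In APC-KO tumor 2 neighbours in the order overlapped from Lcn2 down, and in APC-KO tumor 1 from Csf3r down. In APC-WT tumor 2 the overlapping neighbours were Mmp8 (20.7 to 25.7 scaled CPM per kb) and Lcn2 (19.7 to 24.5), Retnlg and Cxcr2, and Ngp and Camp, and in APC-WT tumor 1 Ngp and Camp. The lowest places were taken by Mmp8, Ngp and Cxcr2 in APC-KO tumor 2 and by Camp, Ngp and Cxcr2 in APC-KO tumor 1, and by Cxcr2, Ngp and Camp in both APC-WT tumors.

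The comparison of APC-KO with APC-WT tumors asks whether macrophages of APC-mutated tumors differ. With 2 tumor sums on each side (edgeR's quasi-likelihood test, Benjamini-Hochberg adjustment), Lcn2, Ngp and Camp were higher and Csf3r was lower in APC-KO tumors. However, 56.0% of the 53705 genes tested were called higher and 2.52% lower on this scale, and the median of all genes tested was 3.57 log2 units higher, against 0.00 for the expressed genes. The 3 of 9 called higher are a smaller share than that of all genes. Leaving out 1 tumor leaves a genotype with a single tumor, which is assumed to vary like the 2 of the other genotype, and the calls over all genes moved as well. Called higher and lower were 11.5% and 1.75% of genes without APC-KO tumor 2, 11.4% and 1.80% without APC-KO tumor 1, 93.0% and 3.44% without APC-WT tumor 2, and 92.3% and 3.37% without APC-WT tumor 1. Lcn2 was higher by 2.10 ± 0.59 log2 units (SE, adjusted p = 0.018), and did not pass without APC-KO tumor 1 (1.12, adjusted p = 0.070). Ngp, at 3.02 ± 0.97, lay below the median of all genes tested and Camp, at 4.23 ± 1.06, within 1 SE of it, and neither passed when either of the APC-KO tumors was left out, where the SE was larger and the changes stayed near these values (Ngp 3.25 without tumor 2 and 2.74 without tumor 1, Camp 4.23 each). With expected background subtracted (limma), Camp at 2.83 ± 0.17 and Ngp at 1.80 ± 0.37 were called higher and Csf3r at -1.82 ± 0.29 lower, while Lcn2 at 2.04 did not pass (adjusted p = 0.25), where 45.5% of the genes were called higher and 4.79% lower. With TMM over all genes, which puts the median expressed gene at -4.01, Lcn2 was at -1.33 and Ngp at -0.70, Camp was at 0.73, and edgeR called none of the genes (0 of 53705 at an adjusted p below 0.05, 18647 at an unadjusted one).

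Csf3r fell by 1.62 ± 0.20 log2 units in APC-KO tumors (edgeR, adjusted p = 0.00061). Without each tumor in turn it was at -1.35 to -1.84, called lower each time on the assumption given above for a single tumor. It did not pass with limma-voom (-1.42, adjusted p = 0.42) or TMM over all genes (-5.49, adjusted p = 0.097). It was past the threshold when either APC-KO tumor was set against either APC-WT tumor (4 pairs), where 3.57% of 45451 genes were lower in all 4; p-values of these pairs measure the spread between libraries, and the pairs share tumors. Lcn2, Retnlg, Ngp and Camp were higher in all 4 pairs, as were 90.1% of the genes. With the length offset Csf3r was lower in all 4 pairs (-0.77 to -1.65), while Lcn2 in APC-KO tumor 2 against APC-WT tumor 2 was at -0.12 (edgeR, adjusted p = 0.245). Surface genes of the sorted macrophages were also lower in APC-KO tumors: Itgam changed by -2.57, Csf1r by -2.29, Adgre1 by -2.09 and Ptprc by -1.52 log2 units. Trem1, a receptor that amplifies myeloid inflammation, fell by 0.99 log2 units and Fpr1, the formyl peptide receptor, by 1.27. Of 8 neutrophil receptors listed 3 fell and 0 rose past the threshold, with a median of -0.39, and of 12 macrophage markers 5 fell and 2 rose, with a median of -0.25. Of 6 primary granule genes 4 rose (median 3.75), of 10 specific and gelatinase granule genes 5 rose and 3 fell (median 1.13), and of 20 mature neutrophil genes 3 rose and 3 fell (median 0.74), beside the 56.0% of all genes called higher. With expected background subtracted, 4 of the primary granule genes rose (median 2.07), 0 of the specific and gelatinase granule genes rose and 2 fell (median 0.06), and 2 of the mature genes rose and 2 fell (median -0.02), while 1 of the receptors and 4 of the macrophage markers fell. With the length offset 24.9% of 3941 expressed genes were called higher and 24.4% lower. Of 5 expressed specific and gelatinase granule genes 0 rose and 2 fell, and of 11 expressed mature genes 0 rose and 2 fell. Of 5 expressed receptors 3 fell and 0 rose (median -1.13), and of 12 macrophage markers 7 fell and 0 rose (median -0.79). None of the primary granule genes was among the expressed genes.

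The remaining 5 did not pass in this comparison. S100a8 and S100a9 had log2 differences of 1.42 ± 0.59 each (edgeR, adjusted p = 0.059 for each), Retnlg 1.95 ± 0.93 (adjusted p = 0.081), Cxcr2 0.18 ± 0.76 and Mmp8 0.05 ± 0.52. On this scale each of the 5 differed by more between the APC-WT tumors (1.25 to 2.58 log2 units), where 78.8% of all genes were called higher in tumor 2. With expected background subtracted this held for all but Retnlg, which differed by 1.67 between genotypes and by less between the APC-WT tumors. Without APC-WT tumor 2, S100a8, S100a9, Retnlg and Cxcr2 were called higher (2.78, 2.83, 3.51 and 1.98), and without APC-WT tumor 1 Retnlg was called higher (1.21) and Cxcr2 lower (-0.60). Without APC-KO tumor 2, S100a8 and S100a9 were called higher (1.90 and 1.96), and without APC-KO tumor 1 none of the 5 was called higher (edgeR; S100a8 0.68, S100a9 0.56, Retnlg 1.56). The shares of all genes called without each tumor are given above. Retnlg also passed with DESeq2 (1.94, adjusted p = 0.025) and limma-voom (2.84, adjusted p = 0.042). Short transcripts were also over-represented in APC-KO libraries relative to APC-WT libraries: at the length of S100a8 (498 bases in its longest transcript) the trend over expressed genes stood at 0.828 and 0.945 log2 units in APC-KO tumors 2 and 1 and at -0.885 and -0.888 in APC-WT tumors 2 and 1. With this trend as an offset among the expressed genes, S100a8 was at -0.38 ± 0.75 and S100a9 at -0.34 ± 0.79, and Lcn2 at 1.45 ± 0.77 (adjusted p = 0.18). Csf3r then still fell by 1.21 ± 0.23 (adjusted p = 0.015), where 24.9% of 3941 genes were called higher and 24.4% lower, and Mmp8 was at 0.18 ± 0.64. Of the other S100 genes 7 were listed, and all rose without the offset (median 1.92), with S100a6 at 1.92, S100a10 at 1.85 and S100a13 at 2.36. On that scale 56.0% of all genes were called higher, and the median of all genes tested was larger, at 3.57. With the offset 2 of the 6 expressed genes of this S100 list rose, beside 24.9% of all expressed genes.

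**Figure D3:**
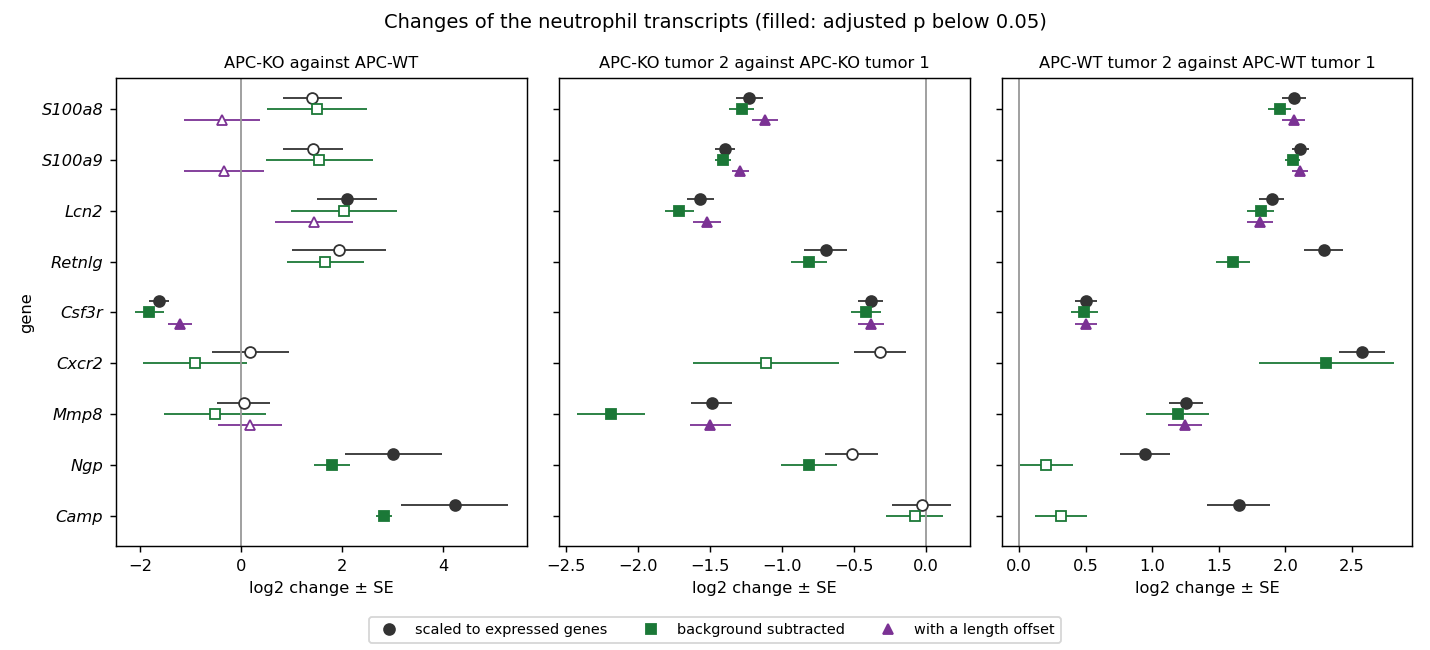
Log2 changes with SE of the 9 neutrophil transcripts in APC-KO against APC-WT tumors and between the tumors of each genotype (x axes differ), from counts scaled to the expressed genes (circles), after subtraction of expected background (squares) and, for the 5 expressed genes, with a length offset (triangles); filled symbols passed the threshold. S100a8 and S100a9 lie at 1.42 without and at -0.38 and -0.34 with the offset in the genotype panel, and between the APC-WT tumors Camp lies at 1.65 before and 0.31 after subtraction and Retnlg at 2.29 and 1.60.

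The tumors of a genotype were compared next. Background was nearly equal in the 2 APC-KO tumors, and in APC-KO tumor 2 against APC-KO tumor 1 (24 libraries, edgeR's quasi-likelihood test; p-values measure the spread between libraries) 6 of the 9 fell, against 1.30% of 45451 genes lower and 1.20% higher. Lcn2 changed by -1.57 ± 0.10 log2 units (adjusted p = 1.2e-12), Mmp8 by -1.49 ± 0.14, S100a9 by -1.39 ± 0.07 (adjusted p = 4.0e-15) and S100a8 by -1.23 ± 0.09. Retnlg changed by -0.69 ± 0.15 (adjusted p = 0.0047) and Csf3r by -0.38 ± 0.09 (adjusted p = 0.0097; 0.17 with limma-voom). Ngp was at -0.52 ± 0.18 (adjusted p = 0.23), Cxcr2 at -0.32 ± 0.18 and Camp at -0.03 ± 0.20, and these 3 did not pass. After subtraction of background, Mmp8 was at -2.18 ± 0.24 and Ngp passed, at -0.81 ± 0.20 (limma, adjusted p = 0.016). The median of the 9 was -0.69, against 0.01 for all genes tested.

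Other neutrophil genes went down with them in APC-KO tumor 2. Of 20 genes listed for mature and tumor neutrophils 11 fell and 0 rose (median -0.43), of 8 receptors 4 fell and 0 rose (median -0.27), and of 6 chemokines and growth factors that act on neutrophils 5 fell (median -0.81). Slpi, a secretory inhibitor of neutrophil elastase, fell by 1.00 log2 units, with medians of 445 (tumor 2) and 895 (tumor 1) scaled CPM. It was picked for its likeness to S100a8 and S100a9 over these same libraries, so its fall follows in part from that choice. Fpr1 fell by 1.15 log2 units, Ptgs2, the inducible cyclooxygenase, by 0.81 and Trem1 by 0.48, and the chemokine genes Cxcl3 and Cxcl2 fell by 1.55 and 0.50. Clec4d (-1.33), Mcemp1 (-1.08) and Ppbp (-2.13), named after their values were seen, also fell. Also named after their values were seen, the receptors that fell were Fpr1, Fpr2, Trem1 and Il1r2, and the ligands that fell were Csf3, Cxcl1, Cxcl2, Cxcl3 and Ppbp. Of 10 genes listed for specific and gelatinase granules 2 fell, Ltb4r1 (likewise) by 1.06 and Adam8 by 0.86. In the same list 1 rose, Cybb, the phagocyte oxidase subunit, by 0.26. Ltb4r1 encodes a leukotriene B4 receptor and not a granule protein, although every count of that list includes it. None of 6 primary granule genes and none of 6 transcription factors passed (edgeR; 0 of each), with medians of 0.03 and -0.09. Many of these genes, such as Ptgs2, Cxcl2 and Slpi, are also made by macrophages.

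Markers of other cells moved as well between the APC-KO tumors. Of 12 macrophage markers 5 rose and 2 fell (median 0.06), with Csf1r at 0.21, Adgre1 at 0.06 and Itgam at 0.00, and of 12 monocyte markers 3 rose and 0 fell (median -0.01). Of 10 T and NK cell markers 5 rose; their summed level per library was 273.6 to 299 scaled CPM in APC-KO tumor 2 and 121.9 to 162.1 in APC-KO tumor 1, where 97.3 and 96.4 were expected from background. Those that rose were Cd3g and, named after their values were seen, Trac, Cd8a, Nkg7 and Gzmb, and Cd3g rose by 0.91 log2 units. Epithelial markers summed to 278.6 to 312.8 scaled CPM in APC-KO tumor 2 and to 208.8 to 267.1 in APC-KO tumor 1, with 3 of 6 higher, and 4 of 6 stromal and endothelial markers were higher. These rose where the neutrophil transcripts fell. Their part in the fall of the neutrophil transcripts was not tested.

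In APC-WT tumor 2 against APC-WT tumor 1 all 9 were called higher, but so were 78.8% of the 45451 genes (4.53% lower), and background was larger in APC-WT tumor 2. With TMM over all genes 5 of the 9 were higher, against 46.3% of all genes (27.3% lower), while Csf3r was lower (-0.79), and Mmp8 (-0.043), Ngp (-0.34) and Camp (0.37) did not pass. With expected background subtracted (limma on log2 of scaled CPM plus 1), 7 of the 9 rose, against 6.87% of 45282 genes higher and 3.80% lower. Cxcr2 was higher by 2.31 ± 0.51 log2 units, S100a9 by 2.05 ± 0.06, S100a8 by 1.96 ± 0.09, Lcn2 by 1.81 ± 0.10, Retnlg by 1.60 ± 0.13, Mmp8 by 1.19 ± 0.24 and Csf3r by 0.49 ± 0.10 (largest adjusted p = 0.0030, that of Cxcr2). Camp at 0.31 ± 0.20 and Ngp at 0.20 ± 0.20 did not pass (limma, adjusted p = 0.50 and 0.81). The added 1 scaled CPM understates the change of low genes such as Retnlg, Ngp and Camp. The median of the 9 was 1.60, against 0.07 for all genes tested and -0.05 for the expressed genes.

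Neutrophil genes beyond the 9 were also higher in APC-WT tumor 2 after subtraction of background. Of the 20 mature neutrophil genes 13 rose and 0 fell (median 0.53), and of the 8 receptors 5 rose and 0 fell (median 0.58). Ceacam1 rose by 1.87 log2 units and Padi4, which citrullinates histones in neutrophil extracellular traps, by 1.01. Slpi rose by 1.84 log2 units, with medians of 338 (tumor 2) and 93.9 (tumor 1) scaled CPM. As it was picked for its likeness to S100a8 and S100a9, its rise follows in part from that choice. Of the 10 specific and gelatinase granule genes 5 rose and 2 fell, with Adam8 at 0.86 and Mmp9, gelatinase B, at -0.96. Cd177 (2.38) and G0s2 (2.29), named after their values were seen, rose most in their lists. None of the 6 primary granule genes passed (limma, 0 of 6; median 0.34). The ligands were split: Cxcl3 rose by 0.55 log2 units, and Cxcl2 fell by 0.24 and Cxcl5 by 1.14.

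**Figure D4:**
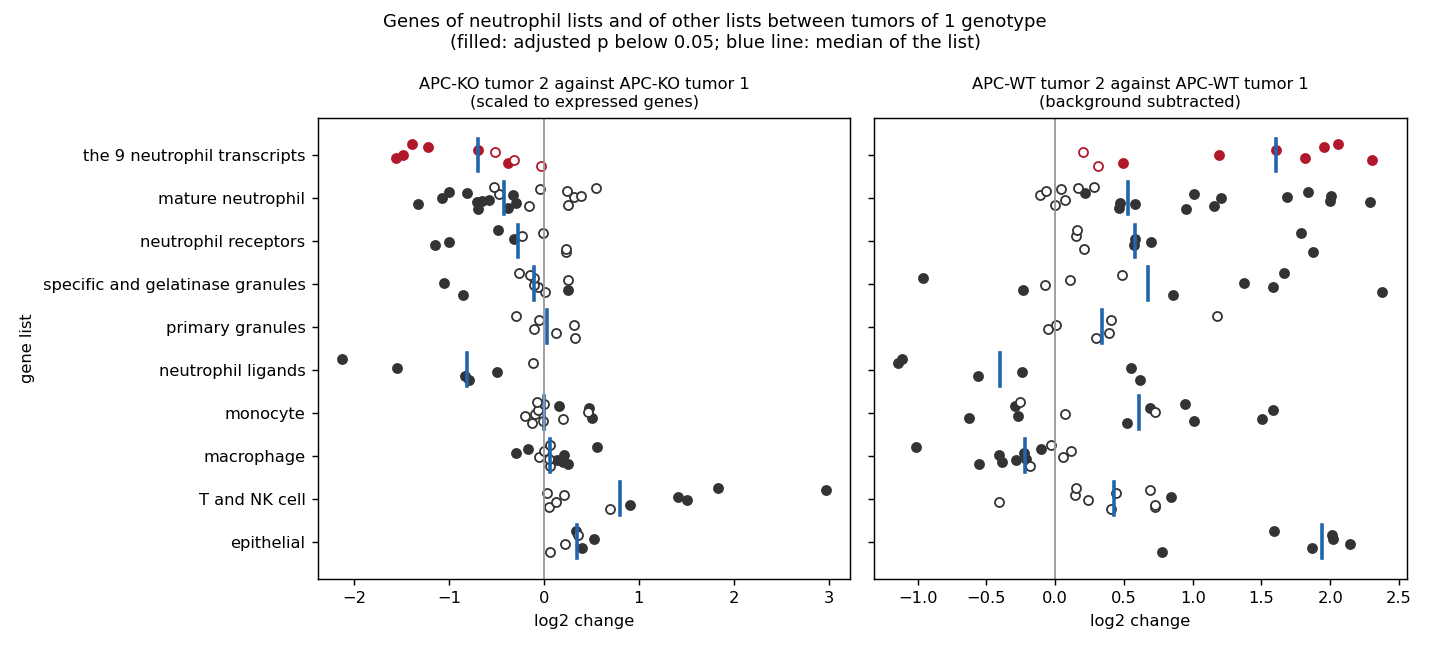
Log2 change of each listed gene in APC-KO tumor 2 against APC-KO tumor 1 (left) and, with background subtracted, in APC-WT tumor 2 against APC-WT tumor 1 (right); filled points passed the threshold and blue lines are list medians. The 9 neutrophil transcripts have medians of -0.69 and 1.60, primary granule genes of 0.03 and 0.34, and macrophage markers of 0.06 and -0.22.

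Macrophage and epithelial markers moved beside these changes. Of 12 macrophage markers 8 fell and 0 rose in APC-WT tumor 2 after subtraction (median -0.22), with Csf1r at -0.41, while 6 of 12 monocyte markers rose and 3 fell (median 0.61). All 6 epithelial markers rose, with Krt18 at 2.14, Krt19 at 2.02 and Krt8 at 1.59, and their summed level per library was 561.7 to 598.3 scaled CPM in APC-WT tumor 2 and 169.9 to 188.7 in APC-WT tumor 1. Of 10 T and NK cell markers 1 rose, Gzmb (0.84; named after its value was seen). No eosinophil marker passed (limma, 0 of 8), and 1 of 8, Siglecf, was above background in each APC-WT tumor. The part of these cells in the rise of the neutrophil transcripts was not tested.

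Across the 24 libraries the genes that ran most like S100a8 and S100a9 were each other. The measure was the root mean square distance of log2 scaled CPM, centred on each gene's mean, over 3941 expressed genes, and the libraries share tumor, depth and background. S100a8 and S100a9 were 0.159 log2 units apart, Slpi came next at 0.217 and 0.222, and Inhba, the activin A subunit, followed at 0.305 and 0.280. Lcn2 was nearest to Inhba (0.315), Slpi (0.325) and S100a9 (0.363). Mmp8 was nearest to Ndrg1 (0.258), Hcar2 (0.280) and Grina (0.337), and Csf3r to Sema4a (0.166), Myo1e (0.194) and Myadm (0.200). Neither Csf3r nor Mmp8 had S100a8, S100a9, Lcn2 or each other among its 3 nearest genes. Retnlg, Cxcr2, Ngp and Camp were not among the expressed genes, so they could not appear.

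Partners of these proteins were present unevenly. Tlr4, a receptor for calprotectin, was above background in APC-WT tumors 2 and 1 (27.7-fold and 237-fold) and not in APC-KO tumors 2 and 1 (1.46-fold and 1.30-fold), and it fell by 1.61 log2 units in APC-KO tumors (edgeR, adjusted p = 0.0012). Slc22a17, a receptor for lipocalin 2, was above background in APC-WT tumor 1 alone. The transcription factor genes Spi1 (PU.1) and Cebpa were above background in all 4 tumors, and both were lower in APC-KO tumors, at -0.34 and -0.57 log2 units. Libraries of Cebpa overlapped widely, however. They ranged from 61.0 to 107 and from 54.9 to 99.6 scaled CPM in APC-KO tumors 2 and 1. In APC-WT tumors 2 and 1 they ranged from 52.3 to 173 and from 61.8 to 204. Cxcl2, a ligand of CXCR2, had medians of 3440 and 4920 scaled CPM in the APC-KO tumors 2 and 1 and of 2130 and 2490 in APC-WT tumors 2 and 1, and was 0.88 log2 units higher in APC-KO tumors (adjusted p = 0.0028).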

How the data were processed

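The authors deposited whole-number counts per Ensembl gene ID for 24 libraries. The submitters' processing notes name bcl2fastq 2.20.0, HISAT2, StringTie and the build mm9 without roles or settings. Symbols, lengths and coordinates come from GENCODE M21 (GRCm38), matched by ID (55227 of 55487). The 9 genes, the lists and the tests were chosen with earlier results of these data known.

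Expressed genes averaged 10 CPM or more over the 4 tumors and exceeded their expected background by at least 10 times. Left out of them were 12 satellite-like loci, whose 15-mers overlap those of Gm10800 by a share of 0.3 or more. Genotypes were compared on tumor sums (2 against 2) and tumors on libraries, by edgeR 4.0.16 in R 4.3.3 with filterByExpr, TMM over expressed genes and an adjusted p below 0.05. Background-subtracted levels went through limma with a pseudocount of 1 scaled CPM. A loess fit on transcript length (span 0.5) gave the length offset. Figures and tables used Python 3.11.15. Named beside the 9 were up to 3 genes per list with the smallest p in the genotype fit, 9 fixed markers, and the 3 expressed genes nearest in pattern to each expressed one of the 9, Slpi among them; others are marked as named after their values were seen. Functions were tested on simulated counts drawn from a mean profile shared by all tumors. Those counts lacked the differences in background, satellite share and length trend, so that test does not cover their effect on the calls. Counts without molecular identifiers bound counting error only.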

Additional observations from a re-analysis of the deposited data

Results flagged for a closer look

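Within the 36 sets of 6 libraries (9 genes in 4 tumors), 3 held a library set far apart from the others by Dixon's test, where chance gives about 1 in 20. All 3 were in APC-WT tumor 2. Replicate 2 had the lowest S100a9, at 72.9 scaled CPM against a median of 80.4. Replicate 6 had the highest Cxcr2, at 32.5 against a median of 25.2, and the highest Camp, at 1.47 against a median of 0.922. None of these gaps is as large as the difference from APC-WT tumor 1 in the same gene.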

How the results depend on the processing

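In APC-KO tumor 2 against APC-KO tumor 1 the 6 calls were kept under every alternative that gave an adjusted p, except that Csf3r missed with limma-voom (adjusted p = 0.17). Ngp joined them with background subtracted (-0.81; -1.62 doubled). In the genotype comparison the 3 higher genes became 0 with TMM over all genes, 0 of 5 with a length offset and 1 with the background subtracted 2 times over, and 0 to 7 when 1 tumor was left out (0 without APC-KO tumor 1, where 11.4% of all genes were called higher, and 7 without APC-WT tumor 2, where 93.0% were). The 1 lower gene became 0 with TMM over all genes, with limma-voom and with the doubled background, and 1 to 2 when a tumor was left out (2 without APC-WT tumor 1, where Cxcr2 joined). With TMM over all genes, which puts the median expressed gene at -4.01, edgeR called 0 of 53705 genes, although 18647 had an unadjusted p below the threshold. With the doubled background 10.6% of all genes were higher and 6.13% lower, and with the length offset 24.9% and 24.4% of 3941. Called higher in all 4 pairs were 1 with TMM over all genes and 1 with the doubled background in place of 4, and lower 5 and 2 in place of 1; of all genes 24% and 16.2% were then higher and 23.7% and 11.4% lower. In APC-WT tumor 2, TMM over all genes called 5 higher and 1 lower (46.3% and 27.3% of all genes). A length offset called 5 of 5 higher there, where 19.6% of 3941 genes were higher and 28% lower. Above background in every tumor were 2 in place of 5 against the highest receptor gene and 2 against 10 times the receptor mean.

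Directions turned as follows in the genotype comparison. With TMM over all genes the log2 changes were S100a8 -1.97, S100a9 -1.95, Lcn2 -1.33, Retnlg -1.37, Cxcr2 -3.07, Mmp8 -3.58 and Ngp -0.70. With the length offset they were S100a8 -0.38 and S100a9 -0.34, and with background subtracted Cxcr2 -0.91 and Mmp8 -0.52 (doubled: -3.43 and -1.74). With 1 tumor left out Cxcr2 ranged from -0.60 (without APC-WT tumor 1) to 1.98 (without APC-WT tumor 2), and Mmp8 from -0.89 (without APC-KO tumor 1; -0.44 without APC-WT tumor 1) to 0.80. Between the APC-WT tumors TMM over all genes gave Csf3r -0.79, Mmp8 -0.043 and Ngp -0.34, and the doubled background Ngp -0.29 and Camp -0.070. The cause was not tested. DESeq2, its size factors and no filter kept these counts within 1.5 times.

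The replicate numbers do not pair libraries: same-numbered libraries had a median correlation of -0.0139 and 5 of 24 matched best with their own number. A replicate block left the 6 lower calls in APC-KO tumor 2 at 6 and the 9 in APC-WT tumor 2 at 9. With tumor numbers as a replicate block, 4 were higher and 1 lower in APC-KO tumors (31.8% and 2.12% of all genes). S100a8 (edgeR, adjusted p = 0.0017) and S100a9 (5.1e-06) joined the higher genes and Ngp (0.104) left them, and Mmp8 was at -0.0031. The labels give no pairing of tumors by number, and the differences of tumor 1 from tumor 2 had a correlation of -0.395 between genotypes. A block over 4 tumor sums leaves very little from which to estimate the spread. With tumors paired the opposite way S100a9 had a still smaller value (edgeR, adjusted p = 8.1e-13). The p-values of these blocks therefore decide nothing. The crossed pairing, added after seeing the data, also gave 4 and 1 (33.1% and 2.6% of all genes), with Mmp8 at -0.0047. The doubled background and the length offset on libraries and on the ratio of Csf3r to S100a9 were likewise added after seeing the data. Depth limits Camp and Ngp most, and 2 tumors per genotype limit every genotype comparison.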
